A study of Mus musculus with 18 samples.

Results

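The Ctm knockout line of mice was compared with its own wild-type littermates in whole cerebellum, across all genes read by an Affymetrix mouse expression array. The comparison uses 6 of the 18 arrays of the study, chosen by their titles: 3 from homozygous Sca6 CtmKO/CtmKO mice and 3 from wild-type littermates of that line. All mice are of strain C57BL/6. The study's description gives 6 weeks as the age of the CtmKO/CtmKO and the MPI 118Q/118Q mice, and the ages of the MPI 11Q/11Q mice and of all wild-type littermates are not given in the sources used here. The sources do not spell out what Ctm stands for or which part of the gene the allele removes, and they say nothing of a promoter, a cell type or a clone behind it. The other 12 arrays come from homozygous MPI 118Q/118Q and MPI 11Q/11Q knock-in mice and the wild-type littermates of each, with 3 arrays in each group, and serve here as a backdrop, their 6 wild-type arrays being called the other wild types. The study concerns spinocerebellar ataxia type 6 and the splicing of the final coding exon of Cav2.1.

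Cav2.1 is the pore-forming subunit of the P/Q-type voltage-gated calcium channel, encoded by Cacna1a, and it opens to let calcium into nerve terminals and dendrites. In the cerebellum it is most prominent in Purkinje cells and in the terminals of granule cells. Alternative splicing of the last coding exon decides whether the channel carries a long or a short cytoplasmic tail, and the repeat that is expanded in spinocerebellar ataxia type 6 lies in the long tail.

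Values are log2 expression per gene on the authors' scale, and a change is the knockout mean minus the wild-type mean, so 1 unit is a doubling. Array medians of the 18 arrays lay between 2.38 and 2.55. The tissue read as cerebellum: the 15 measured granule cell markers averaged 9.12, 9.02 and 8.96 in the knockouts and 9.08, 8.999 and 9.05 in the wild types, and the 16 Purkinje cell markers 8.63, 8.53 and 8.54 in the knockouts and 8.55, 8.47 and 8.58 in the wild types. The 13 markers of the hindbrain outside the cerebellum averaged only 1.38 to 1.51 in the knockouts and 1.42 to 1.55 in the wild types. In whole tissue, fewer cells of a type and less RNA per cell cannot be told apart.

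The wild-type arrays of the line differed among themselves in a way the knockouts did not, and this bears on the results given below. Pearson correlations over all genes ran from 0.995 to 0.996 among the knockouts, from 0.992 to 0.995 among the wild types and from 0.990 to 0.995 between them. The SD over 3 arrays exceeded 0.5 for 84 genes in the knockouts and for 294 genes in the wild types. Wild-type arrays 2 and 3 stood apart from wild-type array 1 in the genes that rose.

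In the knockout 169 genes passed the test (0.929% of the 18193 tested): 152 rose (0.835%) and 17 fell (0.0934%) at a limma adjusted p below 0.05. Without adjustment 2185 of the 18193 had a p below 0.05, the share to set beside each list's count below. The labels say only that the arrays are separate samples, so these p-values measure the spread between samples, which may be technical in part. The fit shares 1 estimate of each gene's spread over the 6 groups. In the 152 rises the median SD was 0.48 in the Ctm wild types and 0.10 in the knockouts. The SEs and p-values of most rises therefore understate the spread of the Ctm wild types. The rises had a median of 0.90 and ran from 0.47 to 2.72, the falls had a median of -0.51 and ran from -0.37 to -1.39, and the median over all genes was -0.06. All 3 knockouts lay above all 3 wild types in 151 of the 152 rises, against 6.19% of all genes, and below them in each of the 17 falls, against 15.1% of all genes. The exception was Zfp943. These genes were picked by a test on the same arrays, so the separation follows largely from that choice and is no added support. Both counts turned on single arrays: there were 403 rises and 44 falls without wild-type array 1, 35 and 6 without wild-type array 2, and 0 and 1 without wild-type array 3. With wild-type arrays 2 and 3 both left out, 4 genes rose and none fell in limma's fit, with 1119 genes at an unadjusted p below 0.05, and 1 of those 4 was among the 152. Without these arrays the median change was 0.41 in the 152 rises and -0.45 in the 17 falls, and 0 of either turned sign. The change was smaller by over 1.5 times in 125 of the rises and in 2 of the falls. With 1 wild-type array left, missing the threshold does not by itself show that a change was lost. Leaving out 1 knockout gave 6, 23 and 32 rises, and 1 fall each time. With the 6 arrays of the line fitted alone, 0 genes rose and 1 fell, Gadd45gip1, with 2676 genes at an unadjusted p below 0.05.

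The falls were led by genes of chromosome 8, the chromosome that carries Cacna1a. Gadd45gip1 encodes a protein of the mitochondrial ribosome that also binds Gadd45 proteins. It stood at 4.61, 4.67 and 4.33 in the knockouts, against 5.94, 5.75 and 6.08 in the wild types. The groups were more than 1 unit apart, and no knockout came near a wild type. It fell by 1.39 (SE 0.16, limma adjusted p = 0.00128), a level 2.62-fold lower than in the wild types. It had the smallest adjusted p in most of the fits tried and kept an adjusted p of 0.0215 without wild-type array 3, while with both wild-type arrays 2 and 3 left out it was at -1.41 with an adjusted p of 0.0537. A dimmer probe set of Gadd45gip1 went the other way, at 2.41, 2.72 and 2.94 in the knockouts and 1.98, 2.18 and 1.84 in the wild types (0.69, limma adjusted p = 0.0829 over all probe sets), so the fall holds for 1 of 2 probe sets.

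Trmt1, which encodes a tRNA methyltransferase, and Mri1, which encodes an isomerase of the methionine salvage pathway, lie close to Cacna1a. Trmt1 read 4.68, 4.58 and 4.51 in the knockouts and 5.197, 5.35 and 5.24 in the wild types, and it fell by 0.67 (SE 0.14, limma adjusted p = 0.0312). Mri1 read 3.51, 3.58 and 3.56 in the knockouts and 3.96, 4.33 and 4.72 in the wild types, and it fell by 0.79 (SE 0.18, limma adjusted p = 0.0383). The knockouts were close together in both genes, whereas the wild types of Mri1 were spread out. All 3 probe sets of Trmt1 were lower in the knockouts, but only the brightest passed. The dimmer ones were at -0.20 and -0.29 (limma adjusted p of 0.692 and 0.558 over all probe sets). The second, dim probe set of Mri1 was at 0.12. Rasd2, the gene of the small GTPase Rhes, read 3.804, 4.11 and 3.64 in the knockouts and 4.74, 5.22 and 4.73 in the wild types, and fell by 1.05 (SE 0.22, limma adjusted p = 0.0313). Usp38, the gene of a deubiquitinating enzyme, read 3.73, 3.62 and 3.40 in the knockouts and 3.97, 4.26 and 4.41 in the wild types, and fell by 0.63 (SE 0.15, limma adjusted p = 0.0464). Neither of these pairs of groups overlapped. With wild-type arrays 2 and 3 left out, Mri1 was at -0.41 (adjusted p = 0.824) and Usp38 at -0.39 (adjusted p = 0.822), the 2 falls that shrank by over 1.5 times, with Trmt1 at -0.61 and Rasd2 at -0.89, also short of the threshold (adjusted p of 0.746 and 0.752).

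Of the 17 falls, 5 (29.4%) were on chromosome 8, which holds 5.17% of the genes tested. In the order of measured genes along the chromosome, Mri1 was number 2 before Cacna1a, Trmt1 number 3 and Gadd45gip1 number 7 after it, with Usp38 at 34 and Rasd2 at 57 before it. Among the 60 genes nearest to Cacna1a, 30 on each side, 3 fell (5%, with 0.0934% over all genes) and 0 rose, with 12 at an unadjusted p below 0.05. All 3 knockouts lay below all 3 wild types in 16 (26.7%, with 15.1% over all genes). Among the 140 genes at ranks 31 to 100, 2 fell and the knockouts lay below in 35 (25%), a share about the same as in the nearest 60. Among the next 400, out to rank 300, 0 fell and 2 rose, and the knockouts lay below in 69 (17.2%). The median change was -0.11 in the nearest 60, -0.05 at ranks 31 to 100 and -0.08 from there to rank 300.

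**Figure D1:**
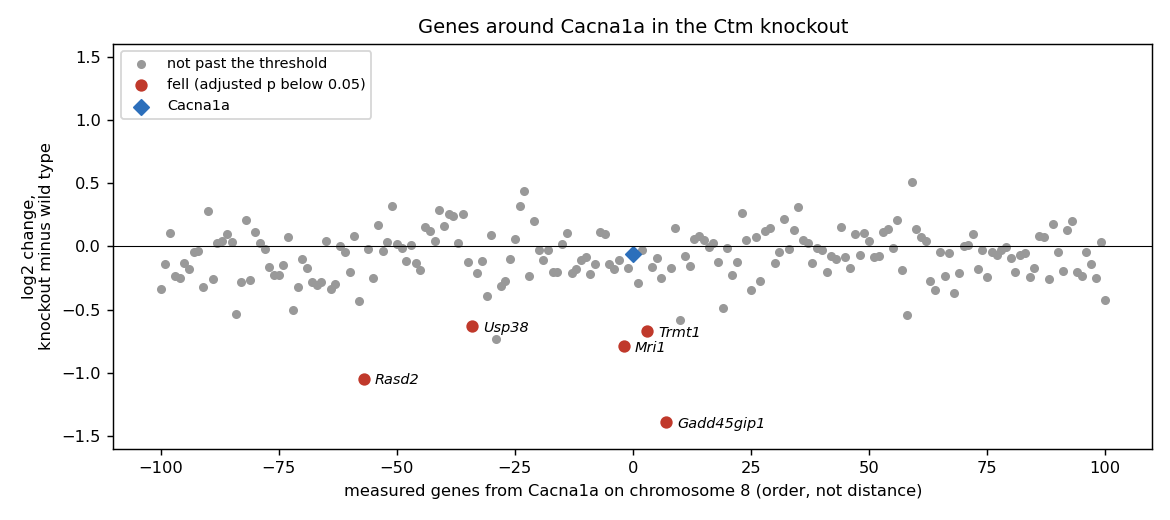
Log2 change (knockout minus wild type, vertical axis) of the measured genes within 100 ranks of Cacna1a on chromosome 8, in their order along the chromosome (horizontal axis, ranks and not distance). Red points are the 5 genes that fell at a limma adjusted p below 0.05, grey points did not pass, and the blue diamond is Cacna1a, at -0.06.

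The same 5 genes were set beside their values in the knock-in lines, which have wild types of their own. In 11Q mice Gadd45gip1 was at 4.86, 4.99 and 4.88 in the knock-ins and 5.97, 5.65 and 5.84 in the wild types, a change of -0.91 that did not pass (limma adjusted p = 0.130). Mri1, Rasd2, Trmt1 and Usp38 were at -0.68, -0.50, -0.40 and -0.26 in the 11Q knock-ins, none past the threshold (limma adjusted p between 0.742 and 0.876). In the 118Q knock-ins the changes of Gadd45gip1, Trmt1 and Usp38 were -0.05, 0.02 and -0.10, and those of Mri1 and Rasd2 were 0.33 and 0.21. The Ctm change of Gadd45gip1 differed from the mean change of both knock-in lines by -0.91 (limma adjusted p = 0.0391), and that difference did not pass for the other 4 genes (adjusted p from 0.116 to 0.230).

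The other 12 falls lay on other chromosomes and were smaller. Hspb8, the gene of a small heat shock protein, read 4.26, 4.36 and 4.42 in the knockouts and 4.79, 5.02 and 4.84 in the wild types, and fell by 0.54 (SE 0.12, limma adjusted p = 0.0423). The 3 knockouts were also below each of the 12 arrays of the other lines, whose lowest value was 4.80. Vkorc1, the vitamin K epoxide reductase gene, read 5.68, 5.67 and 5.69 in the knockouts and 6.03, 6.16 and 6.18 in the wild types, and fell by 0.44 (SE 0.09, limma adjusted p = 0.0280). The knockouts of Vkorc1 were again below all 12 arrays of the other lines, the lowest of which was 5.73. Pde8b, the gene of a cyclic AMP phosphodiesterase, read 4.11, 3.89 and 3.87 in the knockouts and 4.36, 4.505 and 4.44 in the wild types. It fell by 0.48 (SE 0.10, limma adjusted p = 0.0313), and its second, dimmer probe set was at -0.11.

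Among enzymes, Pycrl, a pyrroline-5-carboxylate reductase gene of proline synthesis, fell by 0.51 and Grhpr, the glyoxylate and hydroxypyruvate reductase gene, by 0.50. Mrpl57, a gene of the mitochondrial ribosome, fell by 0.47 and Nhp2, a gene of the small nucleolar ribonucleoprotein that guides pseudouridylation, by 0.43. Rom1, known from photoreceptor outer segments, fell by 0.51, Wdr34, a dynein-2 subunit gene of cilia, by 0.49, Trp53i13 by 0.54 and Tmem42 by 0.47. Grb2, the adaptor that links receptor tyrosine kinases to Ras, fell by 0.37. It read 7.09, 7.03 and 7.07 in the knockouts and 7.46, 7.38 and 7.46 in the wild types, and its second probe set was at -0.18. Adjusted p-values of these 9 genes lay between 0.0274 and 0.0452 in limma's fit. For Grb2 it was the wild types of the line that stood outside: the knockouts were inside the range of the 12 arrays of the other lines, and the wild types above it.

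Over the 17 falls the knockouts were below all 12 arrays of the other lines in 9 genes, and the mean of the Ctm wild types was within the range of the 12 in 15 genes. The 17 were picked by a test on the same Ctm arrays, and these counts were not taken over all genes. Set against the mean of the 6 other wild types, the 17 genes had median deviations of -0.28, -0.37 and -0.42 in the knockouts and 0.14, 0.09 and 0.30 in the Ctm wild types. When the 6 other wild types took the place of the Ctm wild types, 10 of the 17 falls still passed in limma's fit and 1, Grb2, turned sign.

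**Figure D2:**
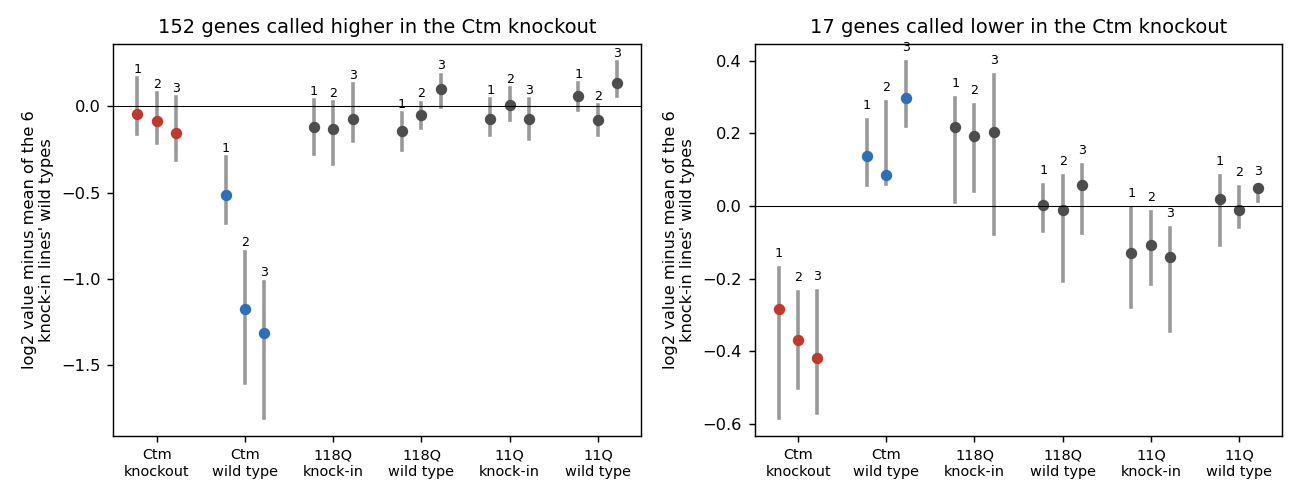
Median deviation of each array (points, numbered by replicate, with bars from the first to the third quartile over genes) from the mean of the 6 other wild types, in log2 units, for the 152 genes that rose (left) and the 17 that fell (right) in the Ctm knockout. In the rises the Ctm wild types sit low at -0.51, -1.18 and -1.32, and in the falls the Ctm knockouts sit low at -0.28, -0.37 and -0.42.

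In the rises it was the Ctm wild types that lay away from the rest of the study. Set against the same 6 arrays, the 152 genes had median deviations of -0.05, -0.09 and -0.16 in the knockouts, and the Ctm wild types were far below. Over all genes the medians were -0.02, -0.03 and -0.04 in the knockouts and 0.02, 0.01 and 0.06 in the Ctm wild types. In the 152 genes the knockout mean exceeded wild-type array 1 by a median of 0.41, array 2 by 1.12 and array 3 by 1.26. Array 1 was the highest wild type in 142 of the 152 genes, while array 3 was the lowest in 90 and array 2 in 60. Wild-type arrays 2 and 3 were both below all 12 arrays of the other lines in 146 of the 152, and all 3 wild types were in 94. The knockout mean lay within the range of the 12 in 111, and all 3 knockouts were above the 6 other wild types in 8. These counts were not taken over all genes. The 152 were picked by a test on the same Ctm arrays, so how far selection alone yields such counts is not known. The median SD over 3 arrays in these genes was 0.10 in the knockouts and 0.48 in the Ctm wild types, and between 0.10 and 0.17 in the other 4 groups. The wild-type SD was above the knockout SD in 147 of the 152 rises and in 57.6% of all genes. With the 6 other wild types in place of the Ctm wild types, 8 of the 152 kept a rise in limma's fit and 102 turned sign.

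Fut9, the fucosyltransferase gene behind the Lewis x sugar of neural glycoproteins, had the largest rise of a named gene. It read 7.81, 7.80 and 7.66 in the knockouts and 7.46, 3.95 and 4.67 in the wild types. Wild-type array 1 was close below the knockouts, and arrays 2 and 3 were far below. The change was 2.40 (SE 0.52, limma adjusted p = 0.0318), and without wild-type arrays 2 and 3 it was 0.30 (adjusted p = 0.865). Of the 46 measured fucosyl-, sialyl- and galactosyltransferase genes, Fut9 alone rose (2.17%, with 0.835% over all genes) and 0 fell. At an unadjusted p below 0.05 were 5, and the list's median was -0.10.

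**Figure D3:**
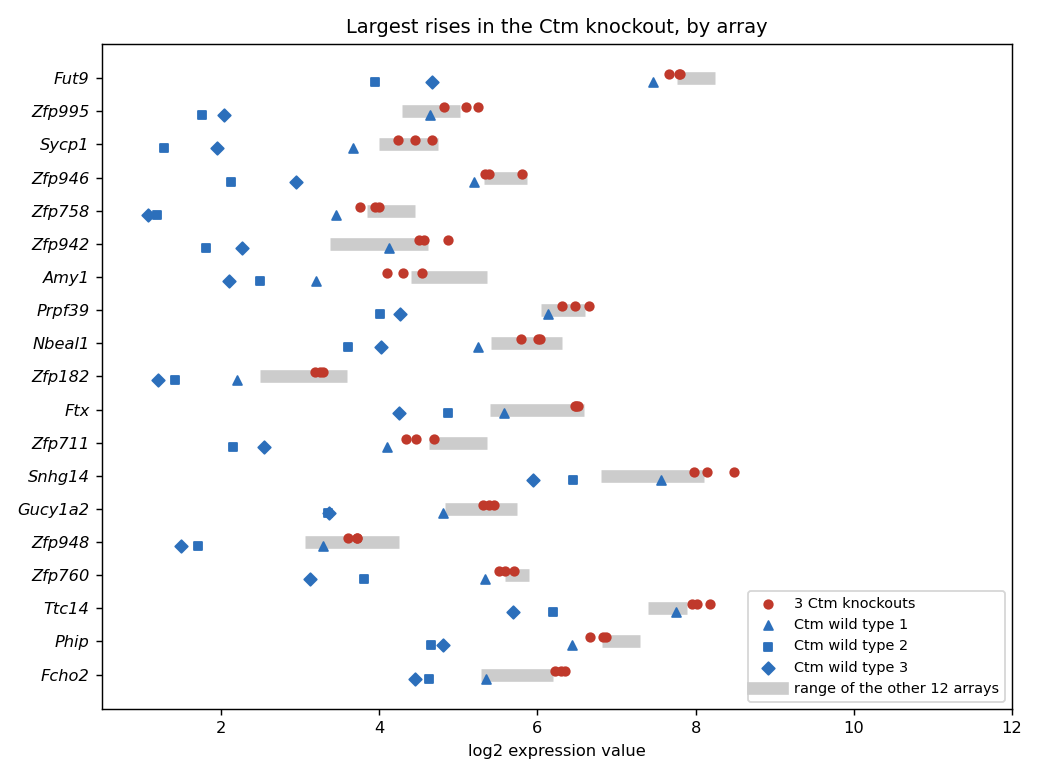
Log2 expression (horizontal axis) of 19 of the 20 genes with the largest rises in the Ctm knockout, sorted by change. Red circles are the 3 knockouts, blue symbols the 3 wild types (triangle for array 1, square for array 2, diamond for array 3) and grey bars the range of the 12 arrays of the other lines. Wild-type arrays 2 and 3 lie left of every grey bar, and wild-type array 1 lies nearest to the knockouts in all 19 genes.

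In several large rises wild-type array 1 was low as well. Amy1, the salivary amylase gene, read 4.30, 4.54 and 4.10 in the knockouts and 3.20, 2.50 and 2.11 in the wild types. The change was 1.71 (SE 0.23, limma adjusted p = 0.00503), and all 3 wild types were below the 4.40 to 5.37 of the other 12 arrays. Without wild-type arrays 2 and 3 it was 1.11 (adjusted p = 0.520). Ftx, a noncoding transcript of the X-inactivation centre, read 6.51, 6.48 and 6.48 in the knockouts and 5.58, 4.87 and 4.25 in the wild types, a rise of 1.59 (SE 0.26, limma adjusted p = 0.00900). Fcho2, which encodes a protein that starts clathrin-coated pits, read 6.34, 6.22 and 6.30 in the knockouts and 5.35, 4.63 and 4.45 in the wild types, a rise of 1.48 (SE 0.22, limma adjusted p = 0.00900). For Ftx and Fcho2 the knockouts were tightly grouped, and wild-type array 1 was nearer to wild-type array 2 than to any knockout. Ftx was at 0.91 and Fcho2 at 0.94 without wild-type arrays 2 and 3, and neither passed (adjusted p = 0.661 each). The knockouts of Fcho2 lay above the 12 other arrays, whose highest value was 6.20.

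The remaining named rises outside the zinc finger genes covered varied roles. Sycp1, a gene of the synaptonemal complex of meiosis, rose by 2.15, at 4.66, 4.24 and 4.45 in the knockouts and 3.67, 1.28 and 1.95 in the wild types. Gucy1a2, a subunit gene of the nitric oxide receptor guanylate cyclase, rose by 1.55. Nbeal1, of the BEACH domain family, rose by 1.65, Phip, which encodes a pleckstrin homology domain-interacting protein, by 1.49, and Ttc14 by 1.505. In these 5 genes limma's adjusted p ran from 0.00900 to 0.0296. None passed without wild-type arrays 2 and 3 (adjusted p from 0.612 to 0.851), with Sycp1 at 0.78, Gucy1a2 at 0.58, Nbeal1 at 0.70, Phip at 0.35 and Ttc14 at 0.30. The gap between wild-type array 1 and the others was wide in each: Gucy1a2, for example, read 5.40, 5.32 and 5.46 in the knockouts and 4.81, 3.35 and 3.37 in the wild types. Tested over all probe sets, Phip passed in 3 of its 9, Ttc14 in 4 of 10, Nbeal1 in 3 of 4 and Gucy1a2 in 1 of 2. The lowest change was 0.05 for Phip and 0.06 for Gucy1a2.

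Zinc finger genes with Zfp symbols mostly encode DNA-binding proteins of large tandem families. Theirs was the largest list used here, and by count it held more of the rises than any other. Of the 334 measured, 17 rose (5.09%, with 0.835% over all genes) and 0 fell, 66 had an unadjusted p below 0.05, and the median change was -0.02. The share was higher in the small lists of SR splicing factors (20%), glutamate receptors (12.5%), noncoding RNAs (12.5%) and heterogeneous nuclear ribonucleoproteins (5.26%). All 17 rises were lost without wild-type arrays 2 and 3 and without array 3 alone, and 43 Zfp genes rose without array 1. On chromosome 17, 8 of the 43 measured rose, with a median of 0.34 for the 43. On chromosome 7, which holds more of them, 0 of 83 rose and the median was -0.10. The list was drawn up with these results known.

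On chromosome 17, Zfp995 read 5.09, 4.83 and 5.25 in the knockouts and 4.64, 1.76 and 2.04 in the wild types, a rise of 2.24 (SE 0.46, limma adjusted p = 0.0267). Zfp946 read 5.80, 5.34 and 5.39 in the knockouts and 5.195, 2.13 and 2.95 in the wild types, a rise of 2.09 (SE 0.45, limma adjusted p = 0.0318). Zfp758 read 3.95, 4.00 and 3.76 in the knockouts and 3.46, 1.19 and 1.08 in the wild types, a rise of 1.99 (SE 0.39, limma adjusted p = 0.0229). In each of them wild-type array 1 was within 0.5 units of the lowest knockout, and wild-type arrays 2 and 3 were more than 2 units below it. Zfp942 rose by 1.91, Zfp948 by 1.52, Zfp760 by 1.51 and Zfp160 by 1.29, and wild-type array 1 was the highest wild type in each. Once wild-type arrays 2 and 3 were left out, Zfp995 was at 0.41, Zfp946 at 0.32 and Zfp758 at 0.45, and the other 4 were between 0.27 and 0.52. Zfp943, chosen after its values were seen, read 5.70, 5.29 and 4.93 in the knockouts and 4.995, 2.93 and 2.87 in the wild types, so that 1 wild type exceeded 1 knockout, and it rose by 1.71 (SE 0.37, limma adjusted p = 0.0314).

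The promoters of some of these genes are near copies of each other, and 4 are shown because they share both sequence and array pattern. Each is 300 bases long, 250 before and 50 after the gene's start, from RefSeq (GRCm38.p6), written 5' to 3' on the gene's strand. Capitals mark CACGTG, which reads the same on both strands. Zfp758 is at chr17:22361213-22361512 on the plus strand, Zfp943 at chr17:21962309-21962608 on the plus strand, Zfp942 at chr17:21962415-21962714 on the minus strand and Zfp946 at chr17:22423952-22424251 on the plus strand.
Zfp758: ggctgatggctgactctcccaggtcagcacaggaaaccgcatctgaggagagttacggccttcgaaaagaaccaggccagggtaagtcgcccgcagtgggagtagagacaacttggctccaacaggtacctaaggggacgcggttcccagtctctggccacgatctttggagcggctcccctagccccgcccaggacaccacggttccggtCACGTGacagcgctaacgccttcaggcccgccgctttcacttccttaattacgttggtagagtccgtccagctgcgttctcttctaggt
Zfp943: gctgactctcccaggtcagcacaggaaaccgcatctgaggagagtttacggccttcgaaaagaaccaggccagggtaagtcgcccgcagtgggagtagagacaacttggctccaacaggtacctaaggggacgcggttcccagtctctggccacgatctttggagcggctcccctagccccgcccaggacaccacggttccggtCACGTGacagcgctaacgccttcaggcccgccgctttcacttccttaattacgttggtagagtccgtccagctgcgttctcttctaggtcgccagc
Zfp942: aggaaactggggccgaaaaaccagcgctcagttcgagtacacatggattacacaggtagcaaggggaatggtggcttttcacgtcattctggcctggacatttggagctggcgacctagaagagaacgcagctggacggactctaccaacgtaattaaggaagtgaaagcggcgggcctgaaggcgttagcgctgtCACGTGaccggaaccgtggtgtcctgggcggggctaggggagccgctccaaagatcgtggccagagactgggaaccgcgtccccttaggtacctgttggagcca
Zfp946: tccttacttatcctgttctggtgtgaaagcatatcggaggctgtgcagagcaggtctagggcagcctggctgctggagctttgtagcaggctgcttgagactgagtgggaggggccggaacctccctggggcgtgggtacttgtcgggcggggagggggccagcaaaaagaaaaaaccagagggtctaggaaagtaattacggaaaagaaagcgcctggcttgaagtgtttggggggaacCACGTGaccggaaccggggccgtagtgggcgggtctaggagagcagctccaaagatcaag

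The Zfp758 and Zfp943 promoters matched at 292 of 292 aligned bases, a count that leaves out 1 extra base in Zfp943. Zfp942 and Zfp943 start head to head, and their windows overlap by 194 bases, so they hold the same CACGTG on opposite strands. Read as its reverse complement, Zfp942 matched Zfp758 over 187 of 187 aligned bases, and Zfp942 and Zfp946 aligned on the same strand over 143 bases with 76.9% identity. The motif stood in 4 of the 8 chromosome 17 promoters of Zfp genes that rose, in 8 of 39 promoters of measured chromosome 17 Zfp genes (20.5%), in 20 of 274 of all measured Zfp genes (7.30%) and in 2349 of all 32851 promoters (7.15%). The 4 with the motif among the rises are the 4 promoters printed above, which were picked for shared sequence and array pattern. Zfp942 and Zfp943 count the same site. These shares are therefore no test of enrichment, and the match is a description of the sequence only. Zfp genes share long stretches of coding sequence too, and how far their probe sets read each other's transcripts was not tested. Zfp942 had 3 probe sets, with changes of 1.91, 0.48 and 0.03, and the last was dim on all arrays.

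Zfp182 and Zfp711 are on the X chromosome. Zfp182 read 3.19, 3.29 and 3.25 in the knockouts and 2.21, 1.42 and 1.20 in the wild types, a rise of 1.63 (SE 0.27, limma adjusted p = 0.00900). Zfp711, a gene of X-linked intellectual disability in people, read 4.69, 4.34 and 4.47 in the knockouts and 4.09, 2.15 and 2.54 in the wild types, a rise of 1.57 (SE 0.32, limma adjusted p = 0.0254). All 3 wild types of both genes were below the knockouts and below the other 12 arrays. Without wild-type arrays 2 and 3 Zfp182 was at 1.03 (adjusted p = 0.726) and Zfp711 at 0.41 (adjusted p = 0.835). Elsewhere Zfp932 rose by 1.34 on chromosome 5 and Zfp280d by 1.01 on chromosome 9. In all, 20 of the 152 rises (13.2%) were on the X chromosome, which holds 3.40% of the genes tested. The genes that rose were also longer, with a median span of 46850 bases (149 genes with a length), against 7823 bases in the 17 falls and 20210 over all genes. They were brighter too, with a median knockout level of 6.19 against 3.76 over all genes. Shares over all genes include many dim ones: with the dimmer 50% left out, 237 of 9096 rose.

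**Figure D4:**
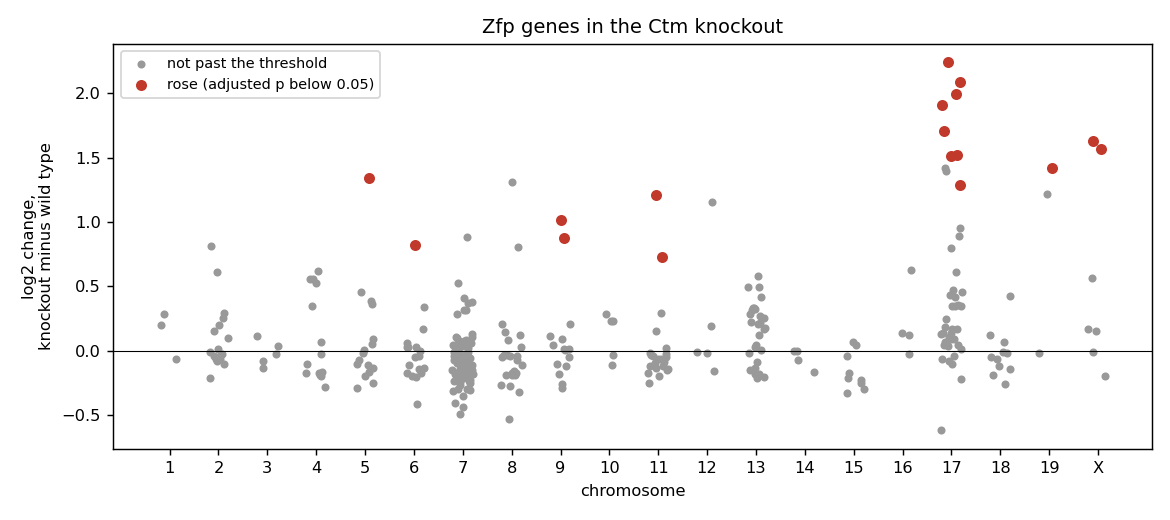
Log2 change (knockout minus wild type, vertical axis) of 334 measured Zfp genes by chromosome (horizontal axis), with the horizontal scatter within a chromosome random. Red points rose at a limma adjusted p below 0.05. Chromosome 17 holds 8 of the 17 rises.

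Genes of RNA processing and noncoding RNA were also among the rises. Prpf39, a splicing factor gene of the U1 particle, read 6.65, 6.31 and 6.47 in the knockouts and 6.14, 4.01 and 4.27 in the wild types, a rise of 1.67 (SE 0.34, limma adjusted p = 0.0267). Its 3 probe sets all passed, with changes from 1.51 to 1.67. Of the 22 largest rises and falls with several probe sets, all sets passed in only 2, while all shared a sign in 20. Of the 10 measured SR splicing factors 2 rose, Srsf11 by 0.63 and Srsf1 by 0.49, 0 fell, and the list's median was 0.18, with 0.835% of all genes rising. Both calls were lost on leaving out any 1 knockout and without wild-type array 2 or 3. Of the 19 heterogeneous nuclear ribonucleoprotein genes 1 rose, Hnrnph1 by 0.60, and the median was 0.10. None of the 25 neuronal splicing regulators passed in limma's fit, 7 had an unadjusted p below 0.05, and Mbnl1 came nearest with 0.51 (limma adjusted p = 0.0668). Srsf11 read 8.20, 8.24 and 8.22 in the knockouts, against 7.96, 7.49 and 7.31 in the wild types. Omitting wild-type arrays 2 and 3 left Prpf39 at 0.34, Srsf11 at 0.26, Srsf1 at 0.43 and Hnrnph1 at 0.31, none past the threshold (adjusted p from 0.728 to 0.840).

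Further splicing genes were picked after their values were seen. Rbm25, which binds exonic enhancers, read 7.72, 7.37 and 7.43 in the knockouts and 6.94, 6.04 and 6.02 in the wild types, a rise of 1.18 (SE 0.19, limma adjusted p = 0.00900). Luc7l3, a U1-associated gene, rose by 1.19, Clk1, the gene of a kinase of SR proteins, by 1.26, Pnisr by 1.36 and the splicing kinase gene Prpf4b by 1.08. These 5 were between 0.36 and 0.57 without wild-type arrays 2 and 3. By symbol, in families taken because a member had been seen to rise, 3 of 12 Prpf genes, 3 of 36 Rbm genes, 2 of 3 Luc7l genes and 2 of 4 Clk genes rose and 0 fell, with 0.835% of all genes rising. The family medians were -0.04 for Prpf, 0.06 for Rbm, 0.72 for Luc7l and 0.43 for Clk.

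Of 24 measured long nuclear or host noncoding RNAs 3 rose (12.5%, with 0.835% over all genes) and 0 fell. At an unadjusted p below 0.05 were 8, and the median was 0.17. Snhg14, the imprinted host transcript that runs antisense through Ube3a, read 8.14, 7.98 and 8.49 in the knockouts and 7.57, 6.45 and 5.94 in the wild types, a rise of 1.55 (SE 0.29, limma adjusted p = 0.0197). Meg3, a maternally expressed imprinted transcript, read 9.31, 9.30 and 9.21 in the knockouts and 8.60, 8.76 and 7.63 in the wild types, a rise of 0.94 (SE 0.20, limma adjusted p = 0.0273). Snhg11, a small nucleolar RNA host, rose by 0.86 (limma adjusted p = 0.0483). The groups did not overlap in any of these, and wild-type array 3 was the lowest array each time. Omitting wild-type arrays 2 and 3 left Snhg14 at 0.63 (adjusted p = 0.801), Meg3 at 0.67 and Snhg11 at 0.53 (adjusted p = 0.780), and none of the 3 passed.

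In the synaptic genes, receptor subunits were the ones that passed. Gria2, which encodes the AMPA receptor subunit that limits calcium entry, read 8.75, 8.67 and 8.48 in the knockouts and 8.05, 7.41 and 6.91 in the wild types. The knockouts were inside the range of the other 12 arrays, and all 3 wild types were below it. It rose by 1.18 (SE 0.20, limma adjusted p = 0.00900), a 2.26-fold higher level, and its other 2 probe sets were at 1.10 and 1.01. Without wild-type arrays 2 and 3 it was at 0.58 (adjusted p = 0.661). Grik2, a kainate receptor subunit gene, read 4.66, 4.73 and 4.58 in the knockouts and 4.35, 4.08 and 4.08 in the wild types, a rise of 0.48 (SE 0.11, limma adjusted p = 0.0388) that was 0.30 without those arrays (adjusted p = 0.822). The second probe set of Grik2 was at 0.14 (limma adjusted p = 0.784 over all probe sets). Gria2 and Grik2 were 2 of 16 glutamate receptor genes (12.5%, with 0.835% over all genes), with 0 falls and a median of 0.06. Of 11 GABA-A receptor subunits none passed in limma's fit, 2 had an unadjusted p below 0.05, and Gabrb2 was at 0.49 (limma adjusted p = 0.187).

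None of the 16 measured voltage-gated calcium channel subunits passed the test in limma's fit, 3 had an unadjusted p below 0.05, and their median was 0.06. Cacna1a read 6.21, 6.04 and 5.87 in the knockouts and 6.02, 6.14 and 6.14 in the wild types. The groups overlapped (-0.06, SE 0.15, limma adjusted p = 0.910), and the sign turned under other settings. Its 4 probe sets differed in sign, at -0.06, -0.10, 0.61 and 0.04 from the brightest on, and none passed. The third had a limma adjusted p of 0.185 over all probe sets. Which stretch of the gene the probe sets read, set against the altered one, is not given in the sources used here, so the level does not check the allele. Cacnb4, the beta subunit named beside Cav2.1 in the study's title, read 9.42, 9.39 and 9.51 in the knockouts and 9.04, 8.98 and 8.72 in the wild types. No array overlapped, but the change of 0.53 stood just outside the threshold (SE 0.12, limma adjusted p = 0.0520). Of its other 2 probe sets, the second brightest passed at 0.49 (limma adjusted p = 0.0323 over all probe sets) and the third was at 0.38 (adjusted p = 0.640). Unlike in most rises, the knockouts of Cacnb4 stood outside: the other 12 ran from 8.31 to 9.01, and only wild-type array 1 of the line was also above them. The change differed from the mean change of the knock-in lines by 0.76 (limma adjusted p = 0.0329). Cacna2d1, an alpha-2-delta subunit gene chosen after its values were seen, was at 0.63 (limma adjusted p = 0.0591).

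None of the 22 genes of Cav2.1 partners and vesicle release passed in limma's fit, with 1 at an unadjusted p below 0.05 and a median of -0.05. Rimbp2, whose product tethers the channel at release sites, read 2.48, 2.39 and 2.68 in the knockouts and 2.42, 2.51 and 2.44 in the wild types (0.06, limma adjusted p = 0.918). Of the 8 genes known to change in other Cav2.1 mutant mice none passed, with 2 at an unadjusted p below 0.05 and a median of -0.01. Of 18 genes of calcium handling none passed, and Slc8a1, the sodium-calcium exchanger gene, was at 0.87 (limma adjusted p = 0.0540). Of 16 potassium and sodium channel genes none passed, and Fgf14, which binds sodium channels, read 8.40, 8.46 and 8.31 in the knockouts and 6.66, 8.28 and 6.22 in the wild types (1.34, limma adjusted p = 0.0679). Here it was wild-type array 2, not array 1, that lay near the knockouts. Fgf14 passed without wild-type arrays 2 and 3, at 1.73 (limma adjusted p = 0.0123). The 4 probe sets of Fgf14 differed in sign, at 1.34, 0.91, -0.27 and -0.08.

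None of the genes on 12 lists of cell type markers passed in limma's fit. Markers of neurons and astroglia had medians near 0, with -0.03 for the 16 Purkinje cell and -0.03 for the 15 granule cell markers, with 2 at an unadjusted p below 0.05 in each, and -0.02 for the 16 markers of Bergmann glia and astrocytes, with 0. Gabra6, the granule cell GABA receptor subunit gene, was at 0.22 and Plcb4, the Purkinje cell phospholipase gene, at 0.30. Interneuron, myelin and precursor markers had medians of -0.09, -0.07 and -0.14, and red blood cell markers -0.14. Microglial markers were lower in level: the 19 averaged 3.53, 3.55 and 3.50 in the knockouts and 3.71, 3.66 and 3.78 in the wild types, with no overlap (two-sided exact permutation p = 0.10, the smallest 3 against 3 arrays allow, adjusted p = 0.467 over 14 array measures). Their median change was -0.27, 5 had an unadjusted p below 0.05, and in 8 of the 19 (42.1%, with 15.1% over all genes) all knockouts were below all wild types. The complement genes C1qa and C1qb and the adaptor gene Tyrobp, chosen after their values were seen, were at -0.45, -0.44 and -0.41 (limma adjusted p from 0.266 to 0.350), whereas the purinergic receptor gene P2ry12 was at 0.54 (adjusted p = 0.210).

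Vessel and meningeal markers were also lower without passing. The 15 markers of endothelial cells and pericytes averaged 5.01, 4.90 and 4.85 in the knockouts and 5.10, 5.03 and 5.22 in the wild types, and the 12 of meninges and fibroblasts 4.08, 3.95 and 4.21 in the knockouts and 4.59, 4.37 and 4.30 in the wild types. Neither pair of groups overlapped (exact permutation p = 0.10 each, adjusted p = 0.467). Their median changes were -0.22 and -0.29. The choroid plexus, which secretes cerebrospinal fluid next to the cerebellum, was uneven between arrays: its 12 markers averaged 2.57, 4.05 and 5.47 in the knockouts and 5.88, 5.75 and 3.04 in the wild types (exact permutation p = 0.50). Of the wild-type arrays low in the 152 rises, array 2 was high and array 3 low in that measure. The 3' minus 5' difference of the array's control probe sets, which grows as RNA degrades, was 0.712, 0.583 and 0.558 in the knockouts and 0.634, 0.658 and 0.548 in the wild types (exact permutation p = 0.90).

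Most genes on the lists of ribosomes and respiration were slightly lower in level in the knockouts, and 1 of the listed genes passed the test. All 3 knockouts were below all 3 wild types in 53 of 80 oxidative phosphorylation subunits (66.2%), in 47 of 76 mitochondrial ribosomal proteins (61.8%) and in 25 of 49 cytosolic ribosomal proteins (51.0%), against the 15.1% of all genes. The medians were -0.15, -0.22 and -0.15, with -0.06 over all genes, and without wild-type arrays 2 and 3 they were -0.14, -0.17 and -0.11. Of the listed genes only Mrpl57 passed, with a fall of 0.47 (SE 0.11, limma adjusted p = 0.0388), while 0.0934% of all genes fell. It read 5.95, 5.83 and 5.87 in the knockouts and 6.37, 6.17 and 6.51 in the wild types. Its second probe set was at -0.16 (limma adjusted p = 0.733 over all probe sets). Gadd45gip1, also of the mitochondrial ribosome, fell as described above but is not on these lists. Sdhb, a subunit gene of succinate dehydrogenase, read 8.19, 8.20 and 8.27 in the knockouts and 8.49, 8.49 and 8.59 in the wild types, a small but even gap of -0.30 (limma adjusted p = 0.111). At an unadjusted p below 0.05 were 35 of the 76 mitochondrial ribosomal, 14 of the 80 respiratory and 8 of the 49 cytosolic ribosomal genes. Over all genes it was 2185 of 18193.

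**Figure D5:**
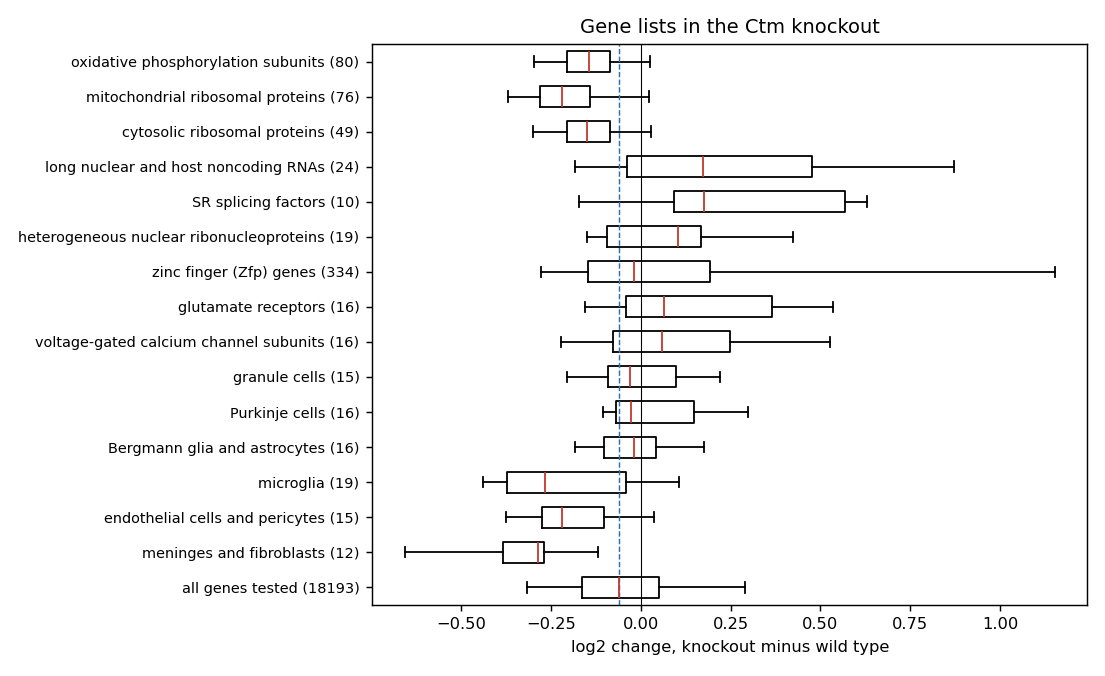
Distribution of log2 changes (knockout minus wild type, horizontal axis) in 15 gene lists and in all genes tested, with the number of measured genes in brackets. Boxes span the quartiles with the median in red, whiskers the 5th to 95th percentile, and the dashed line is the median of all genes, -0.06. Mitochondrial ribosomal proteins have a median of -0.22 and SR splicing factors one of 0.18.

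Activity and stress genes did not pass the test in limma's fit. The 15 immediate early genes had a median of -0.15, the 15 neuropeptide genes -0.14 and the 14 heat shock and chaperone genes -0.02, with 0 at an unadjusted p below 0.05 in each. The 15 genes of cholesterol synthesis had a median of -0.13 and 2 at an unadjusted p below 0.05, the smaller that of Fdps, a farnesyl diphosphate synthase gene, at -0.46 (limma adjusted p = 0.162). The 14 circadian clock genes had a median of 0.04, with Nr1d2, a nuclear receptor of the clock, at 0.51 (limma adjusted p = 0.0972). The 35 protocadherins had a median of -0.03 and 0 at an unadjusted p below 0.05.

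The Ctm change was tested against the mean change of the knock-in lines. It was higher for 94 genes (0.517%) and lower for 20 (0.11%) in limma's fit over the 18 arrays. Of the 152 rises 71 passed this test, and of the 17 falls 5 did. In this contrast Fut9 missed at an adjusted p of 0.0755, and Gria2 passed with a difference of 1.16 (adjusted p = 0.0363). It rested on the same wild-type arrays: without array 3 no gene passed, with 1904 genes at an unadjusted p below 0.05, and without arrays 2 and 3 there were 5 higher and 0 lower, with 1706 genes at an unadjusted p below 0.05.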

How the data were processed

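Expression was measured in 18 cerebellum samples, 1 array each. The labels do not say whether each sample came from a different mouse. The deposited values are log2 per probe set, made by the authors with RMA, a version of which is not given, per the submitters' processing notes. The zero point of the scale is not given in the sources used here, so changes of dim genes depend on that step. Of 45101 probe sets, 64 are array controls, 34945 have 1 gene symbol in the platform table and 10092 several or none. Each gene was read from its brightest such probe set, by the mean of the 18 arrays (18193 genes, 9010 with several). RefSeq GRCm38.p6 gave chromosomes, gene order and promoters.

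limma 3.58.1 in R 4.3.3 fitted 1 mean per group over all 18 arrays, with eBayes, two-sided, adjusted by Benjamini-Hochberg over all genes, threshold 0.05 (12 residual and 5.98 prior degrees of freedom). The fit was checked on simulated data in which all groups shared 1 spread per gene. The wider spread of the Ctm wild types was not simulated, so the check does not cover it. The 3 arrays per group limit the precision. Array measures had exact permutation tests.

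The comparison, the members of the 35 lists (1093 of 1139 entries measured) and the rules were chosen with earlier results of these data known. Selected for description were the 20 largest rises and 20 largest falls (17 existed) among genes past the threshold with groups apart, up to 4 passing members or the nearest member per list, and Cacna1a, Cacnb4, Rimbp2 and Gabbr2 (not analysed here). Predicted loci were counted but not named, and 1 of the largest rises is not reported here. The text leaves out some of the nearest members and marks genes picked outside this rule by their values. Replicate numbers did not pair the samples: deviations from group means of same-numbered arrays correlated at 0.0068, 0.23 and -0.20. Alternatives are given in the closing section.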

Additional observations from a re-analysis of the deposited data

Results flagged for a closer look

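For 23 named genes the Ctm change differed from the mean change of both knock-in lines at a limma adjusted p below 0.05, the reason they are singled out here. All values are Ctm change minus that mean on the log2 scale, and the Ctm and knock-in lines share no wild types. Among the large rises the difference was 2.11 for Sycp1, 1.59 for Amy1, 1.86 for Nbeal1, 1.78 for Zfp182, 1.98 for Ftx, 1.94 for Snhg14, 1.82 for Gucy1a2 and 1.55 for Fcho2. For other genes that rose it was 1.16 for Gria2, 1.29 for Zfp932, 1.09 for Zfp280d, 0.65 for Srsf1, 1.24 for Prpf4b, 1.18 for Rbm25 and 1.48 for Pnisr. For genes that fell it was -0.91 for Gadd45gip1, -0.70 for Pycrl, -0.72 for Rom1, -0.64 for Mrpl57 and -0.52 for Vkorc1. Cacnb4, Fgf14 and Slc8a1 did not pass in the Ctm comparison itself, and their differences were 0.76, 2.15 and 1.24. Fgf14 was at -1.62 and Slc8a1 at -0.72 in the 118Q knock-ins, values that enter the mean subtracted. There Snhg14 at -0.62, Ftx at -0.48, Mrpl57 at 0.43 (limma adjusted p = 0.0470) and Rom1 at 0.39 also moved against the Ctm change. Amy1 at 0.39 and Sycp1 at 0.15 moved with it. Gadd45gip1 was at -0.91 in the 11Q and -0.05 in the 118Q knock-ins. A difference from the mean need therefore not hold against each line.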

How the results depend on the processing

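The Ctm wild types decide most counts. Leaving out 1 array at a time gave between 1 and 447 genes in all, 0 to 403 higher and 1 to 44 lower, and omitting wild-type arrays 2 and 3 together, chosen after seeing the data, gave 4, all higher, and 0 lower. The 6 arrays of the line alone gave 1 gene (0 higher, 1 lower). The 6 other wild types as control gave 1769 (573 higher, 1196 lower), array weights 627 (466 and 161), the dimmer 50% of genes left out 307 (237 and 70), every probe set by itself 320 (300 higher) and a renewed quantile normalisation 269 (253 higher). Falls numbered 11 with an RNA quality covariate, 11 with trend and robust settings and 5 when a change of 1.5-fold was also asked for. The replicate block gave 157 genes (137 higher, 20 lower), and the numbers do not pair the samples. The difference from the knock-in changes ran from 0 to 377 higher and from 0 to 78 lower over single omissions, and was 5 higher and 0 lower without wild-type arrays 2 and 3. Its replicate block gave 79 and 20.

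Signs turned in 31 cases among 84 genes picked by rule or by their values, not all described above, 26 of them with the 6 other wild types as control. There Fut9 was at -0.23, Zfp946 at -0.11, Zfp758 at -0.18, Amy1 at -0.58, Nbeal1 at -0.055, Zfp711 at -0.49, Gucy1a2 at -0.17, Zfp948 at -0.100, Zfp760 at -0.16 and Phip at -0.37. Zfp932 was at -0.0016, Zfp160 at -0.26, Srsf11 at -0.041, Luc7l3 at -0.17, Clk1 at -0.14, Mbnl1 at -0.17, Meg3 at -0.18, Grik2 at -0.029, Slc8a1 at -0.39, Cacna2d1 at -0.32, Nr1d2 at -0.28 and Plcb4 at -0.066. Grb2 was at 0.035, Col1a1 at 0.020, Slc6a4 at 0.19 and Vgf at 0.021. Without wild-type arrays 2 and 3 Ermn was at -0.11 and Cacna1a at 0.020. Cacna1a was at 0.12 with the mean of probe sets and ran from -0.15 to 0.023 over single omissions, its highest without knockout array 3, where Rimbp2 was at -0.024 in a range up to 0.12. The causes were not tested. Of the 52 of them that passed, 46 kept their call with the replicate block and 0 without wild-type arrays 2 and 3, where the lone wild type is assumed to vary like the other groups.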
